A study of Drosophila melanogaster with 19 samples.

Results

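The cytoplasmic ribosomal protein (RP) genes were examined in Drosophila melanogaster embryos of 5 genotypes of the *chiffon* gene. The members were the genes of the count table whose FlyBase symbol begins with RpL, for the large ribosomal subunit, or RpS, for the small one. Genes for mitochondrial ribosomal proteins (mRpL, mRpS) and 5 symbols ending in -like were left out. This gave 87 of 17807 genes, with 50 genes of the large and 37 of the small subunit. The members were chosen by symbol alone, but the group itself was selected on measured values of the FLWF24 comparisons, in which many RP genes had stood out. Every comparison with FLWF24 is therefore given as a description, and numbers past a threshold there describe the fit and support nothing. The ΔN, FL and WT libraries were part of those comparisons, so other comparisons of these genotypes are not independent of the choice either. At least 1 count was seen for 86 members, *RpL10Aa* had 0 counts in every library, and 85 members passed the expression filter and were tested.

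RNA was taken from hand-picked embryos of stages 12 to 14 that were marked by GFP under Actin-Gal4. Null embryos (n = 4 libraries) carried 2 different *chiffon* null alleles. ΔN (n = 4), FLWF24 (n = 4) and FL (n = 3) embryos had the same null background plus 1 copy of a transgene in trans under *chiffon* regulatory sequences. FL is the full-length rescue, ΔN lacks the N-terminal part, and FLWF24 has an early stop codon, so that ΔN and FLWF24 can make Chiffon-B, the Gcn5-binding subunit of the CHAT histone acetyltransferase, but not Chiffon-A, the partner of the Cdc7 kinase. With a tagged full-length transgene, the paper detected no Chiffon-A in later-stage embryos. WT embryos (n = 4) had Actin-Gal4 and GFP and neither mutant allele nor transgene. Each library pooled several embryos, and each transgene is 1 construct, so replicates measure the spread between pools and not between insertions.

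The eukaryotic ribosome contains ribosomal RNA and about as many RP molecules of each kind, because nearly every protein has a single place in its subunit. RP mRNAs are short, and very abundant, and their translation is tied to growth through the TOR pathway. In flies, losing 1 copy of many RP genes gives the Minute phenotype, with slow development and short bristles, and cells with less RP gene dose are outcompeted by their neighbours. A few fly RP genes exist as pairs, in which 1 copy is often restricted to the germline.

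Gene counts per library, without rRNA genes, ran between 5161281 in ΔN replicate 4 and 21621677 in null replicate 3, and null replicate 1 (6282271) was the next smallest. Reads aligned to more than 1 place took 45.0% to 85.3% of all counted reads and were not assigned to genes, which lowers the counts of near-identical copies. The *chiffon* transcript averaged 29.1 CPM (gene counts scaled to an equal library size with TMM factors) in null, 444.7 in ΔN, 254.1 in FLWF24, 238.0 in FL and 251.4 in WT. All 8 embryo tissue markers were detected in every library (*elav* at 209.3 to 675.1 CPM, *Mef2* at 234.9 to 771.2 CPM), while the germline markers *osk* and *pgc* had medians of 0 and 0.192 CPM. The stage score, late muscle and cuticle genes minus early genes on a log2 scale, ran between 2.59 and 6.14 in null, -0.196 and 3.65 in ΔN, 1.19 and 2.83 in FLWF24, -0.311 and 1.16 in FL and 1.46 and 3.32 in WT. Its part in the results below was not tested except where stated.

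RP genes took 9.92% to 15.8% of the gene counts of a library. In the null libraries the share was 13.7%, 10.04%, 11.7% and 13.6%. In ΔN it was 10.2%, 11.7%, 9.92% and 12.4%, in FLWF24 15.7%, 15.8%, 15.4% and 15.2%, in FL 14.1%, 14.6% and 11.2%, and in WT 14.97%, 10.4%, 12.3% and 10.9%. The 4 FLWF24 libraries lay above every other library and close together (15.5% ± 0.288, SD, n = 4). The ΔN libraries had the lowest mean (11.1% ± 1.21, n = 4), and overlapped with null (12.2% ± 1.74, n = 4), WT (12.2% ± 2.03, n = 4) and FL, which averaged 13.3% ± 1.84 (n = 3). Against the ERCC spike-in RNAs, the ratio of RP to spike-in counts ran between 8.67 and 11.2 in null, 4.45 and 15.2 in ΔN, 7.58 and 17.3 in FLWF24, 6.05 and 16.2 in FL and 4.93 and 18.3 in WT, so that all genotypes overlapped on that scale. The share is relative to other gene counts, and in bulk embryos fewer cells of a type and less RNA per cell cannot be told apart.

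**Figure D1:**
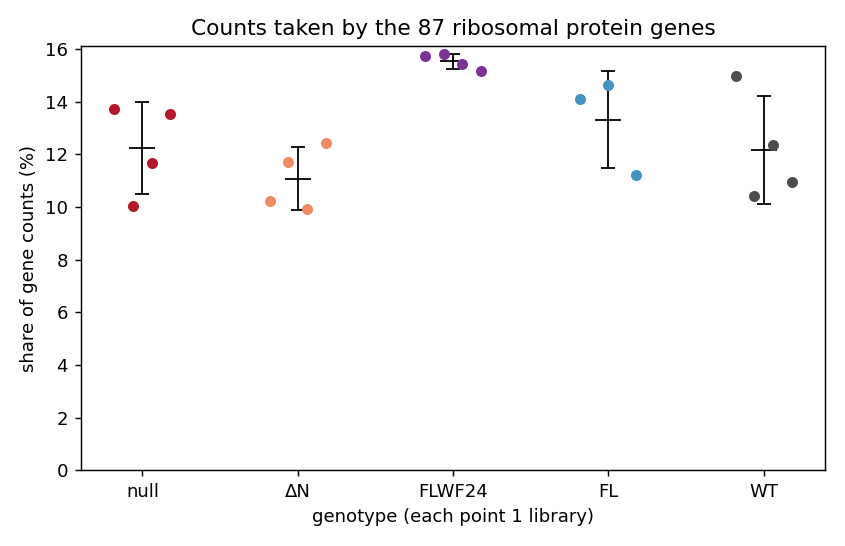
Share of the gene counts of each library taken by the 87 RP genes, in percent, by genotype. Points are libraries and the black bars give mean and SD. The 4 FLWF24 libraries sit at 15.2% to 15.8%, above the other 15 libraries, and the ΔN libraries at 9.92% to 12.4%.

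Most single members had the same order. The mean CPM was highest in FLWF24 for 68 of the 85 tested members, in null for 7, in FL for 7, in ΔN for 3 and in WT for 0. It was lowest in ΔN for 62, in FL for 12, in null for 7, in WT for 4 and in FLWF24 for 0. Over single libraries, the lowest of the 19 values fell in a ΔN library for 59 members, with 28 in replicate 3 and 17 in replicate 4, and in an FLWF24 library for 0 members. Members varied least between replicates in FLWF24, where the median coefficient of variation over 82 members was 8.31%, against 19.1% in null, 19% in ΔN, 15.7% in FL and 14.7% in WT. One library stood apart in shape. In ΔN replicate 4, the shallowest library, 14 members had their highest and 17 their lowest value of all libraries, and the quartiles of the members' log2 deviation from their own mean were -0.56 and 0.22, against -0.63 and -0.31 in ΔN replicate 3.

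*RpL41*, which encodes one of the shortest proteins known in eukaryotes, had by far the highest level per exon length (FBgn0066084, chromosome arm 2R, 24903416 to 24903935, minus strand), with 20951 CPM per kilobase over its 320.0 exon bases. *RpL31* with 4518 CPM per kilobase and *RpL23* with 4410, both for core proteins of the large subunit, were also among the 5 highest. The same 5 led with the length of the longest transcript in place of merged exons. The 5 lowest with any count were *RpS28a* with 0.534 CPM per kilobase, *RpS10a* with 2.46, *RpL37-2* with 3.47, *RpS19b* with 4.15 and *RpS15Ab* with 67.4. Each of these is the second copy of a gene whose other copy was abundant: *RpS28b*, *RpS10b*, *RpL37-1*, *RpS19a* and *RpS15Aa* had 2476, 1386, 1872, 2203 and 1301 CPM per kilobase. *RpS28a* had 46 counts in all and was not tested.

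The null embryos, which carry only null alleles of chiffon and no transgene, were compared with FL and with WT embryos to ask which genes need chiffon. No RP gene passed the threshold against either control (edgeR quasi-likelihood test, Benjamini-Hochberg adjusted p under 0.05 over 11978 genes, with a log2 fold change of 0.5 or more in size), where 0.501% of all genes passed against FL and 0.634% against WT. DESeq2 called 1 member against FL and 2 against WT. With an unadjusted p under 0.05, 1 member was higher and 1 lower in null than in FL (11.7% of all genes in either direction), and 12 were higher and 1 lower in null than in WT (11.5% of all genes). The median log2 fold change of the members was 0.07 against FL and 0.14 against WT, and that of all genes was 0.05 and 0.03. In the fit of null and FL libraries alone the members' median was -0.20, with 68 of 85 below 0, and without single libraries it ran down to -0.08, so the group has no fixed direction in that comparison.

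The member nearest the threshold against FL was *RpS5b* (FBgn0038277, chromosome arm 3R, 14900432 to 14901563, minus strand), a duplicated gene known in flies for its role in the ovary. *RpS5b* held 159.7, 243, 549 and 248 CPM in null and 1318, 1272 and 682 in FL. The groups did not overlap, as for 3 of the 85 members in either direction (1 above and 2 below, where 20% and 8.46% of all genes did so). *RpS5b* differed by -1.15 (SE 0.301, adjusted p 0.0897) on the log2 scale, and the adjusted p fell under 0.05 without the factor of unwanted variation (-1.86, 0.005), with DESeq2 (-1.15, 0.00347) and without the low-count filter (-1.19, 0.04), and without null replicate 3 (-1.72), FL replicate 4 (-1.42) or WT replicate 1 (-1.29). With the stage score as a covariate in place of the factor of unwanted variation, the value was -0.65 with an adjusted p of 0.992. The stage scores of null and FL did not overlap, so that fit could not tell stage from genotype.

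Against WT, *RpL24*, *RpL36* and *RpL18*, which encode core proteins of the large subunit, were among the members with the smallest p and were higher in null. *RpL24* held 2127, 1346, 1867 and 1893 CPM in null and 1301, 958, 1057.5 and 1123 in WT, which differed by 0.71 (SE 0.18, adjusted p 0.0712) in log2 units. The *RpL24* libraries of the groups did not overlap. *RpL36* had 0.74 (SE 0.242, adjusted p 0.207) and *RpL18* 0.48 (SE 0.179, adjusted p 0.294). *RpL24* passed with DESeq2 (adjusted p 0.00225), and also without null replicate 2 (0.0389), without ΔN replicate 4 (0.0349) and without both shallowest libraries (0.0379). In 4 members (4.71%) every null library was above every WT library, against 6.73% of all genes. *RpL24* shares 21.6% of its exon bases with *CG7099* on the opposite strand, so part of its reads may belong to that gene.

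FL embryos were compared with WT embryos as the 2 controls. No member passed with edgeR (0.0918% of all genes did), DESeq2 called 1, and 4 members had an unadjusted p under 0.05, all higher in FL (8.73% of all genes in either direction). *RpS5b* had the smallest p. *RpS5b* held 1318, 1272 and 682 CPM in FL and 696, 319, 390.5 and 372 in WT. FL replicate 4 lay within the WT range and the other FL libraries above it. *RpS5b* differed by 0.97 (SE 0.256, adjusted p 0.187) in log2 units, which passed without FL replicate 4 (1.22). It was 0.63 with the stage score as a covariate in place of the factor, though the scores of FL and WT did not overlap either. In 2 members (2.35%) every FL library was above every WT library and in 4 (4.71%) below, against 5.43% and 7.56% of all genes. The members' median was 0.10 and that of all genes -0.05, and in a fit of these 7 libraries alone the members' median was -0.04, with 39 of 85 above 0.

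ΔN embryos, which can make Chiffon-B but not Chiffon-A, had lower RP levels than FL and WT for most members, with no member past the threshold. The log2 fold change was below 0 for 69 of 85 members against FL and for 69 of 85 against WT, where it was above 0 for 45.1% and 41.6% of all genes. The members' median was -0.27 against FL and -0.23 against WT, and that of all genes was -0.05 and -0.11. With edgeR 0 members were called in both comparisons (0.0167% and 0.0751% of all genes were), while DESeq2 called 4 against FL and 0 against WT. With an unadjusted p under 0.05, 31 members were lower and 1 higher against FL (10.6% of all genes in either direction), and 17 lower and 1 higher against WT (10.5% of all genes). All ΔN libraries lay below all FL libraries in 19 members (22.4%, against 5.23% of all genes) and below all WT libraries in 8 (9.41%, against 3.52%). In 3 members, *RpS12*, *RpS27* and *RpS27A*, both held. *RpS12* takes part in the loser signal of cell competition in flies, *RpS27* is a zinc-binding protein of the small subunit, and *RpS27A* is made as a fusion with ubiquitin. Both comparisons share the ΔN libraries, which were also in the ΔN against FLWF24 comparison in view when the group was proposed. The counts of members given here are therefore not independent of that choice and are descriptions. These libraries were also shallower, with a median of 8290693.5 gene counts, against 15260569 in FL and 12240033 in WT, though ΔN replicate 1 held 15416304. The median share of counted reads not assigned to a gene, most of them aligned to several places, was 88.8% in ΔN, 78.8% in FL and 83.3% in WT. The part of depth and of these reads in the ΔN differences was not tested.

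*RpS27* held 576, 475, 513 and 326 CPM in ΔN, 824, 999.8 and 767 in FL and 772, 599, 722 and 686 in WT. Its 4 ΔN libraries were the 4 lowest of these 11, with ΔN replicate 4 at the bottom. *RpS27* differed by -0.87 (SE 0.191, adjusted p 0.13) on the log2 scale against FL and -0.56 (SE 0.188, adjusted p 0.323) against WT, and the first passed with DESeq2 and with 2 factors of unwanted variation.

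The largest difference among well-expressed members was in *RpL41*. *RpL41* held 4860.5, 4215, 2903 and 2168 CPM in ΔN, 9377, 10766 and 6822 in FL and 8470.2, 3267, 6579 and 4744 in WT. All ΔN libraries lay below all FL libraries, and overlapped with WT. Its log2 fold change against FL was -1.34 (SE 0.351, adjusted p 0.267). *RpL29*, a small basic protein of the large subunit, had the next lowest fold change of the well-expressed members. *RpL29* held 677, 539.8, 361 and 202 CPM in ΔN, 827, 1009.8 and 761 in FL and 868, 552, 763 and 836 in WT. It had -0.94 (SE 0.271, adjusted p 0.286) against FL and -0.91 (SE 0.269, adjusted p 0.268) against WT, with ΔN replicate 4 lowest. *RpL36* had -0.76 (SE 0.23, adjusted p 0.296) against FL and -0.72 (SE 0.226, adjusted p 0.291) against WT. *RpL36A* had -0.59 (SE 0.201, adjusted p 0.331) and *RpS12* -0.50 (SE 0.178, adjusted p 0.347) against WT, both without overlap.

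*RpL27A* (FBgn0285948, chromosome arm 2L, 4457186 to 4458364, minus strand), which encodes a large subunit protein, went the other way. *RpL27A* held 1090.5, 1899, 1542 and 3418 CPM in ΔN, 1765, 1371, 1785 and 1621 in FLWF24, 1051, 1168 and 767 in FL and 1665, 1438.5, 1549 and 1043 in WT. The highest of the 19 values was in ΔN replicate 4, and ΔN replicate 1 lay within the FL range. For ΔN the fitted log2 values were 0.95 (SE 0.277, adjusted p 0.286) against FL (0.60 without ΔN replicate 4, past the threshold only with DESeq2), 0.55 (SE 0.255, adjusted p 0.455) against WT and 0.34 against FLWF24. Without ΔN replicate 4 the value against WT fell to 0.12 (adjusted p 0.893 in edgeR). The remaining ΔN libraries overlapped with both WT and FLWF24. *RpL10*, another large subunit gene, had the same peak in ΔN replicate 4, at 3868 CPM against 1521 to 1858 CPM in the other ΔN libraries. *RpL27A* and *RpL10* were the only 2 of the 85 members with a higher fitted value in ΔN than in FLWF24 (3 members with RLE scaling).

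**Figure D2:**
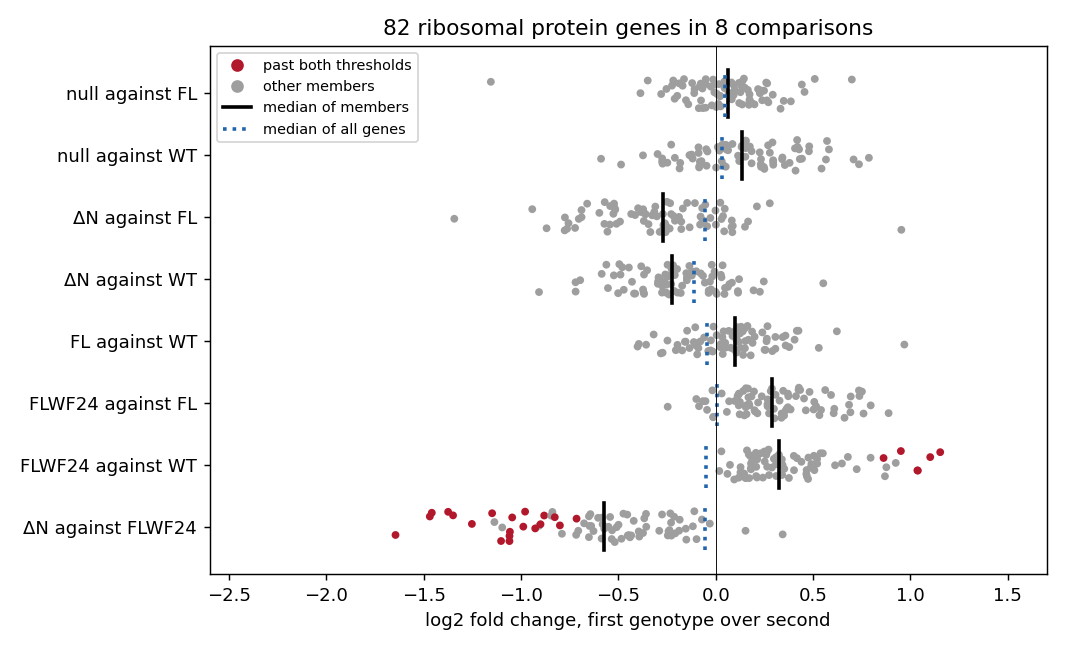
Log2 fold change of 82 RP genes (3 tested members under 10 CPM not drawn) in 8 comparisons, first genotype over second. Points are genes, red where past both thresholds, black bars are the members' median and dotted blue bars the median of all 11978 genes. The members' median is 0.07 and 0.14 for null against FL and WT, -0.27 and -0.23 for ΔN against FL and WT, and -0.57 for ΔN against FLWF24.

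The FLWF24 comparisons were in view when the group was proposed, so the numbers below that come from a test are on the selecting data and are given as a description only. Against FL, 76 of 85 members had a log2 fold change above 0, with a median of 0.29 (all genes 0.01), and 0 were past the threshold with edgeR (0.025% of all genes), 23 had an unadjusted p under 0.05 (6.35% of all genes), and DESeq2 called 4. All FLWF24 libraries lay above all FL libraries in 43 members (50.6%, against 4.71% of all genes). Against WT, all 85 members were above 0, with a median of 0.33 (all genes -0.05; 83 of 85 with 2 factors of unwanted variation or with the stage score), and 6 were past the threshold, all higher in FLWF24 (0.15% of all genes were higher, 0.184% in either direction). They included *RpS5b*, *RpS14b*, *RpS19a*, *RpL24* and *RpL18*, with log2 fold changes of 1.15, 1.10, 1.04, 0.95 and 0.86. *RpS5b* was past it under 21 of 30 alternatives, with values of 1.03 to 1.33, and not with the stage score as a covariate, without a factor of unwanted variation, with the replicate number as a block, or without FLWF24 replicate 2, 3 or 4 or WT replicate 2, 3 or 4. The other 4 of these genes were past it under 23 to 26 of the 30. All FLWF24 libraries lay above all WT libraries in 36 members (42.4%, against 3.41%). For ΔN against FLWF24, which share the lack of Chiffon-A, 83 of 85 members were below 0, with a median of -0.57 (all genes -0.06), and 20 were past the threshold, all lower in ΔN (0.326% of all genes were lower, 0.342% in either direction). Every ΔN library lay below every FLWF24 library in 54 of 85 members (63.5%, against 3.53% of all genes). The 3 comparisons share libraries with each other and with those above.

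Of the 20 genes, 10 belong to each subunit. *RpL36* (FBgn0002579, chromosome X, 628338 to 629483, minus strand) had the largest difference. *RpL36* held 2185, 1327, 2292 and 1659 CPM in null, 1133, 963, 813 and 459.6 in ΔN, 2583, 2433, 2262 and 2461 in FLWF24, 1445.5, 1637 and 1229 in FL and 1635, 928, 1349 and 1208 in WT. No FLWF24 library overlapped with a ΔN, FL or WT library, and null was split, with 1 library above the lowest FLWF24 value. On the log2 scale ΔN differed from FLWF24 by -1.64 (SE 0.229).

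*RpL29* (FBgn0016726, chromosome arm 2R, 21293768 to 21294404, plus strand) came next among the large subunit genes with -1.46 (SE 0.266), and its FLWF24 libraries held 1103.5, 1478, 904 and 1033 CPM. *RpL40*, made as a fusion with ubiquitin, had -1.35 (SE 0.21). Its level was 1356, 1148, 915 and 991 CPM in ΔN and 3456, 2592, 2695 and 2257 CPM in FLWF24. *RpL37-1* had -1.25 (SE 0.223), *RpL24* -1.10 (SE 0.165) and *RpL18* -1.06 (SE 0.166). In *RpL24* the ΔN libraries held 985, 981, 854 and 1185 CPM and the FLWF24 libraries 2289, 2212, 2107 and 1981 CPM, with null reaching into the FLWF24 range, WT into the ΔN range and FL in neither. *RpL36A*, *RpL35*, *RpL12* and *RpLP2* were smaller at -0.99, -0.88, -0.71 and -0.80. *RpL12* forms the base and *RpLP2* a part of the ribosomal stalk, which recruits translation factors.

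Among small subunit genes, *RpS14b* had -1.37 (SE 0.205) and *RpS28b* -1.15 (SE 0.176). *RpS28b* held 1649, 1741, 1445 and 1485 CPM in ΔN and 3684, 3489.9, 3444 and 3322 CPM in FLWF24. *RpS21*, *RpS19a*, *RpS29*, *RpS15Aa* and *RpS30* followed at -1.06, -1.06, -1.05, -0.98 and -0.93. *RpS30* is made as a fusion with a ubiquitin-like protein, and fly *RpS21* mutants are known for overgrown tissue. *RpS27* had -0.90 and *RpS12* -0.83. For all 20 genes the FLWF24 values were above the ΔN values in every library. Of the 2 subunits, the large had a median of -0.53 over 49 tested genes and the small -0.59 over 36.

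**Figure D3:**
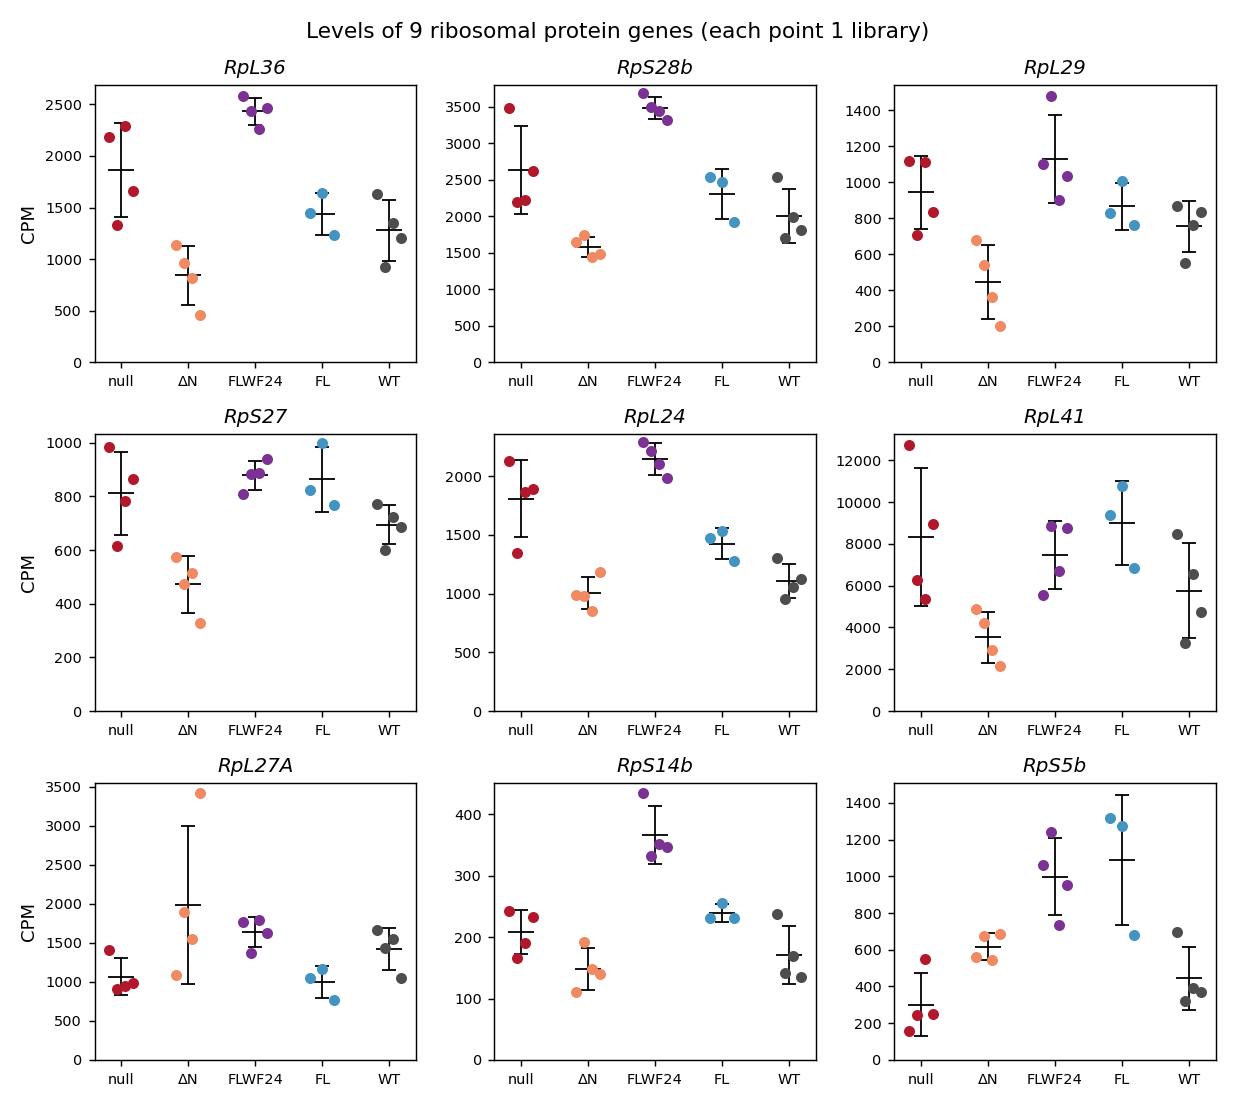
CPM of 9 RP genes in each library by genotype, in null, ΔN, FLWF24, FL and WT from left to right. Points are libraries and the black bars mean and SD. RpL36, RpS28b, RpL29, RpS27, RpL24, RpL41 and RpS14b are low in ΔN, and RpL27A peaks in ΔN replicate 4 at 3418 CPM. RpS5b has its lowest mean in null, where it runs between 159.7 and 549.0 CPM and overlaps with WT and ΔN.

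The members called in any comparison were 21 in all, the 20 above and *RpS5b*, and 7 of them lie on chromosome X. In ΔN against FLWF24, 7 of 14 X-linked members were past the threshold, with a median log2 fold change of -0.80, and 13 of 71 autosomal members, with a median of -0.54. The 1915 other tested genes of chromosome X had a median of -0.04 and 5 were lower. In ΔN against FL the X-linked members had a median of -0.46 and the autosomal ones -0.25, and in ΔN against WT the medians were -0.23 and -0.22.

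Transcript length moved with the ΔN values. In ΔN against FLWF24, the 25 members with under 700 exon bases had a median log2 fold change of -0.80, the 26 with 700 to 1000 bases -0.56, the 30 with 1000 to 1500 bases -0.45 and the 4 longer ones -0.40. Other protein-coding genes of 100 CPM or more in the same length classes had medians of -0.49 (27 genes), -0.32 (66), -0.09 (108) and 0.05 (1841). In this comparison the shorter classes were lower in ΔN both among the members and among other genes, and the members' medians were below those of the other genes in every class. In ΔN against WT, the members' medians by class were -0.43, -0.27, -0.11 and -0.06, and those of the other abundant genes -0.53, -0.25, -0.05 and -0.03, so that the other genes were the lower ones in the shortest class. In ΔN against FL the members had -0.41, -0.23, -0.24 and -0.17, and the other abundant genes -0.28, -0.18, -0.04 and 0.03. Over the 85 members, Spearman's rho of length with log2 fold change was 0.398 for ΔN against FLWF24, 0.34 against FL and 0.565 against WT, between -0.216 and 0.0734 in the comparisons without ΔN. These are descriptions across genes, which share libraries and are not independent. The part of length in the ΔN differences was not tested.

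**Figure D4:**
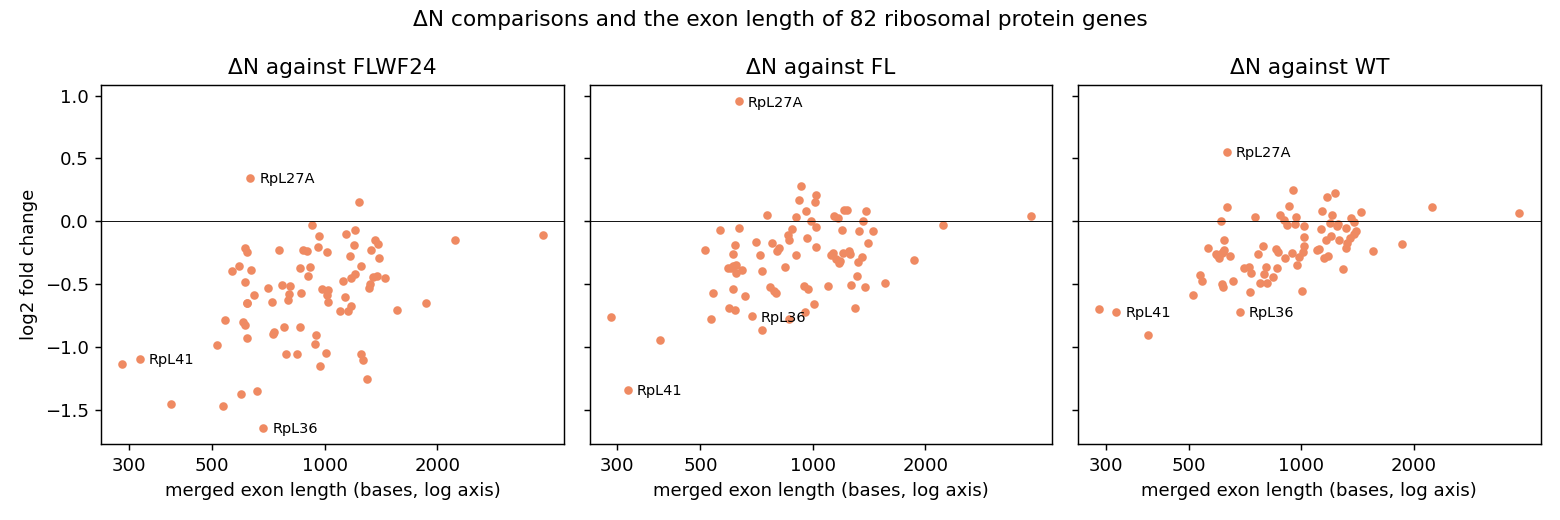
Log2 fold change of ΔN over FLWF24, FL and WT against merged exon length (log axis) for 82 RP genes. RpL41 with 320.0 exon bases and RpL36 lie low in each panel, RpL27A lies above 0 in each, and Spearman's rho over all 85 tested members is 0.398 against FLWF24, 0.34 against FL and 0.565 against WT.

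Among the 8 duplicated pairs named by a final letter a or b, 4 had a second copy with a measurable share. *RpS5b* and *RpS5a* lie on chromosome arm 3R and chromosome X. *RpS5b* took 6.84%, 14.03%, 26% and 10.1% in null, 28.5%, 33.9%, 35.7% and 23.3% in ΔN, 37.8%, 42.01%, 28.5% and 35.02% in FLWF24, 50.9%, 47.5% and 32.8% in FL and 29.1%, 17.7%, 19.4% and 19.7% in WT of the pair's counts. The FL libraries were all above the null and WT libraries, and in FL replicates 2 and 3 the copies were near equal. The mean was 14.3% ± 8.36 in null (SD, n = 4), 30.4% ± 5.61 in ΔN (n = 4), 35.8% ± 5.65 in FLWF24 (n = 4), 43.7% ± 9.62 in FL (n = 3) and 21.5% ± 5.18 in WT (n = 4). In all 5 genotypes the library with the highest stage score had the lowest *RpS5b* share, among them null replicate 1 (score 6.14, share 6.84%) and FL replicate 4 (1.16, 32.8%). In 4 of 5 the library with the lowest score had the highest share, as null replicate 3 did (2.59, 26%). The partner *RpS5a* did not follow, with 2175, 1486.5, 1563 and 2199 CPM in null and 1272, 1406 and 1399 CPM in FL, where every null library was above every FL library.

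*RpS15Ab*, the minor copy of *RpS15Aa*, took 1.9%, 2.63%, 2.98% and 2.07% in null, 4.13%, 5.81%, 4.94% and 4.66% in ΔN, 3.51%, 4.81%, 2.89% and 3.56% in FLWF24, 4.09%, 4.62% and 3.92% in FL and 4.4%, 4.45%, 4.8% and 6.21% in WT. The null libraries were lowest, below all ΔN, FL and WT libraries, and FLWF24 replicate 3 (2.89%) fell within the null range. The means were 2.39% ± 0.50 in null, against 4.97% ± 0.85 in WT (SD over 4 libraries in each). In CPM the null libraries held 37.6, 32.5, 35.1 and 29.8, narrowly below the FL libraries at 59.2, 59.9 and 37.9. They overlapped in CPM with ΔN (36.6, 49.1, 33.7 and 51.2) and WT (62.9, 35.8, 52.1 and 58.1).

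*RpS14a* and *RpS14b* lie in tandem on chromosome X (*RpS14a* at 7933742 to 7934677, *RpS14b* at 7934898 to 7935792, plus strand) and are near-identical copies, so reads that match both were not counted. *RpS14b* took 13.8%, 15.1%, 17.7% and 14.7% in null, 12.2%, 16.1%, 13.96% and 8.17% in ΔN, 24.4%, 21.01%, 20.5% and 20.8% in FLWF24, 17.1%, 17.4% and 20.2% in FL and 16.9%, 11.03%, 13.1% and 11.8% in WT of the counted reads. All FLWF24 libraries lay above all others, and ΔN replicate 4 was lowest. *RpS14a* held 798, 1002, 911 and 1570.3 CPM in ΔN and 1351, 1251, 1364 and 1323 in FLWF24. *RpS14b* held 110.4, 193, 148 and 139.7 CPM in ΔN and 436, 333, 352 and 346 in FLWF24. Only the *RpS14b* groups were apart, since ΔN replicate 4 held more *RpS14a* than any FLWF24 library. *RpL34a* took 9.53% to 18.1% of the counts of *RpL34a* and *RpL34b*, with means of 15.6% in null, 11.7% in ΔN, 12.7% in FLWF24, 16.3% in FL and 13.7% in WT. Every FL library was above every FLWF24 library, and all other pairs of genotypes overlapped. The library with the highest stage score had the lowest share in 4 of 5 genotypes for *RpS14b*, 3 for *RpS15Ab* and 3 for *RpL34a*. The library with the lowest score had the highest share in 3, 3 and 2 of 5. For *RpS5b* these counts were 5 and 4.

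**Figure D5:**
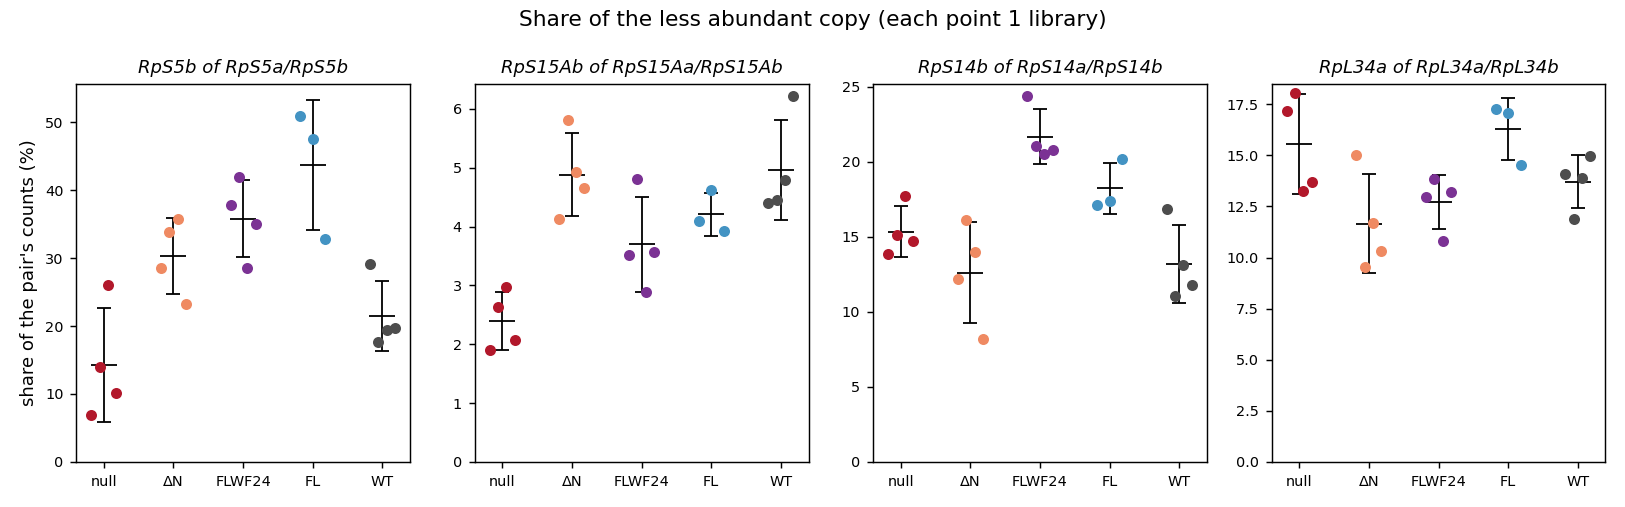
Share of a pair's counts taken by RpS5b, RpS15Ab, RpS14b and RpL34a in each library, in percent, by genotype. Points are libraries and the black bars mean and SD. RpS5b runs between 6.84% in null replicate 1 and 50.9% in FL replicate 2, RpS15Ab has its lowest mean in null, and RpS14b is highest in FLWF24.

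The second copies of the other 4 pairs, and *RpL37-2*, whose pair is named by number, were close to 0. *RpS10a* took 0% to 0.19% of its pair, with 0 counts in all 4 ΔN libraries, in 1 FL, 1 FLWF24 and 2 WT libraries, and at most 5.52 CPM elsewhere. *RpS19b* took 0% to 0.339%, with 0 counts in 3 ΔN libraries and 1 WT library, and 10.1 CPM at most. *RpL37-2* reached 4.95 CPM at most and was at 0 in 6 libraries. *RpS28a* was counted in 3 libraries only, and *RpL10Aa* in none, while its partner *RpL10Ab* held 672 to 1209 CPM. Libraries of 1 genotype held 0 counts or several CPM of these genes, and no fold is given for them.

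Most members followed one profile. Over the 19 libraries, the log2 CPM of *RpS15Aa* (Pearson's r 0.953) and *RpS28b* (0.937) were among the 3 most like the median of the members, and those of *RpL37-2* (0.0292), *RpL27A* (0.107) and *RpS5b* (0.21) the least like it. These values are descriptive, since the genes share libraries and depth. The values of *RpS28b* are given next for every library as an example.

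*RpS28b* held 3484, 2199, 2226 and 2624 CPM in null, 1649, 1741, 1445 and 1485 in ΔN, 3684, 3489.9, 3444 and 3322 in FLWF24, 2532, 2461 and 1916 in FL and 2533.5, 1697, 1988 and 1805.5 in WT. FLWF24 was even, ΔN was low in all 4 libraries with WT replicate 2 in its range, null replicate 1 lay in the FLWF24 range, and FL lay between ΔN and FLWF24.

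Other genes of protein synthesis were read from the same fit. Of 37 translation factors, 0 were past the threshold in each of the 8 comparisons, with a median of -0.12 in ΔN against FL, 0.03 in ΔN against WT, -0.28 in ΔN against FLWF24 and 0.23 in FLWF24 against WT. Of 26 genes for ribosome assembly and the nucleolus, 0 were past it in each, and for null the median was -0.42 against FL, with 7.69% of the genes above 0, and -0.28 against WT. The RP members had 61.2% above 0 for null against FL. Of 71 mitochondrial RP genes, 0 passed in each, and their median was 0.28 in null against FL, -0.17 in ΔN against FL, -0.23 in ΔN against WT and -0.31 in ΔN against FLWF24. The 13 regulators of RP genes that were tested, among them *Myc*, *M1BP*, *Dref* and *Xrp1*, had 0 past the threshold in each comparison and a median of 0.24 in ΔN against FLWF24. For the FLWF24 comparisons these values are descriptions as well. The late muscle list had medians of 2.14 in null against FL, 0.94 in ΔN against FL, 1.21 in FLWF24 against FL and -0.18 in ΔN against FLWF24, and 2 of its 14 genes rose in null against FL, the actin gene *Act57B* at 1.52 and the paramyosin gene *Prm* at 3.96 (adjusted p 0.0183 and 0.0141 in edgeR).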

How the data were processed

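Per the labels and the study's methods, libraries were made with the Ovation RNA-seq System V2 after rRNA depletion, trimmed with Trimmomatic, mapped with HISAT2 and counted with HTSeq 0.11.1 at default settings. The deposited values were raw counts per gene. The table's header was shifted by 1 cell and read by order, and FL columns, numbered 2 to 4, could be tied to the group only and keep those numbers. Names and positions are those of Ensembl's BDGP6.54 annotation, which matched 17710 of 17807 genes. The kit is not known to keep strand while default counting uses it, so overlapping genes are uncertain.

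After removal of 138 rRNA genes, the 92 spike-ins and the summary lines (63.6% to 96.0% of counted reads were not assigned to a gene), 11978 genes passed filterByExpr and were fitted over all 19 libraries with edgeR 4.0.16 in R 4.3.3 (TMM, robust quasi-likelihood, 1 RUVs factor of unwanted variation, which the study names without giving a number). Adjusted p-values are Benjamini-Hochberg over all tested genes and two-sided. On simulated data for ΔN against FLWF24 (11978 genes), 7% of genes changed by 1 log2 unit and 40% changed by 2 were called, with 3 false calls. The changed genes were drawn at random from expressed genes of any level, with a spread estimated without the factor of unwanted variation. These shares therefore do not describe the recovery of RP genes, which are abundant. Alternatives were DESeq2 1.42.0, other scalings and filters, 0 or 2 factors, the stage score, the compared groups alone, the replicate number as a block and leaving out libraries. The stage score and the block each took the place of the factor of unwanted variation. Same-numbered libraries of different genotypes did not vary together. Genes were named by rule: members past the threshold, the 5 highest and 5 lowest per length, both copies of duplicated pairs, and the 3 most and 3 least like the median. Others were named after their values were seen, and some that the rule names are not reported here. The members and all lists were chosen with earlier results of these data known. Libraries are pools of embryos, and where pools were not separate collections p-values would measure technical spread only. Counts without molecular identifiers carry counting error only in floors and shares.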

Additional observations from a re-analysis of the deposited data

Results flagged for a closer look

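Among groups of 4 libraries, 172 sets of values of the named genes, their pair shares and the RP share were examined for a library far from the other 3 (Dixon's criterion at 95%), and 8 stood out, where chance gives about 1 in 20. *RpL27A* was at 1413 CPM in null replicate 1, against 907.5 to 985.8 CPM in the other null libraries. *RpL18* was at 806.4 CPM in ΔN replicate 1, against 667.7 to 681.8 CPM, and *RpS12* at 351.7 CPM in ΔN replicate 3, against 456.2 to 473.4 CPM. *RpS14b* took 24.4% of its pair in FLWF24 replicate 1, against 20.5% to 21.0%. The others are single low values beside 0. *RpS19b* was at 1.82 CPM and 0.116% of its pair in ΔN replicate 3, and *RpS28a* at 0.572 CPM and 0.0172% in FLWF24 replicate 4. Groups of 3 libraries were not examined.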

How the results depend on the processing

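The number of RP genes past the threshold in ΔN against FLWF24 was 20, and 8 with RLE scaling and 11 with scaling from the genes other than RP genes. In FLWF24 against WT it was 6, and 15 with DESeq2, 18 in the compared groups alone and 10 without both shallowest libraries, an alternative chosen after seeing the data. In FLWF24 against FL it was 0, and 4 with DESeq2 and 2 in the compared groups alone. In null against FL it was 0, and 1 without a factor of unwanted variation, with DESeq2, without the filter and without both shallowest libraries. In null against WT it was 0, and 1 without a factor, with 2 factors and without both shallowest libraries, and 2 with DESeq2. In FL against WT it was 0, and 1 with DESeq2 and in the compared groups alone. In ΔN against FL it was 0, and 1 with 2 factors and 4 with DESeq2, and in ΔN against WT 0, and 1 with 2 factors. Leaving out 1 library gave 7 to 21 for ΔN against FLWF24 (7 without FLWF24 replicate 1 or ΔN replicate 3, 9 without FLWF24 replicate 3, 10 without FLWF24 replicate 2 or 4 or null replicate 4), 0 to 9 for FLWF24 against WT (0 without WT replicate 2, 3 or 4, and 1, 2 and 3 without FLWF24 replicates 3, 1 and 4), 0 to 1 for null against FL (1 without null replicate 3, FL replicate 4 or WT replicate 1), null against WT (1 without null replicate 2, ΔN replicate 4 or WT replicate 1), FL against WT (1 without FL replicate 4) and ΔN against WT (1 without ΔN replicate 1), and 0 to 0 for the other 2 comparisons. With the replicate number as a block and FL left out, 6 genes were past it in ΔN against FLWF24 and 0 in FLWF24 against WT, null against WT and ΔN against WT. Same-numbered libraries had correlations of -0.43 to 0.249, and 4 of 16 correlated best with their own number. Such correlations cannot show whether libraries of the same number shared a batch or a collection. The mean RP share of FLWF24 was 15.2% with rRNA genes in the denominator.

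Of the 45 log2 fold changes of named genes that were recomputed, 0 changed sign under any alternative. These were members past the threshold or picked for their values in the main fit. That choice favours a steady sign, so the count does not describe the members as a group. Depth limits the lowest copies, and the fitted folds of *RpS10a* and *RpS19b*, with groups at 0, are no bounds. All differences are relative to other genes of the same library. The causes of the changes in counts were not tested, except that the compared-groups fits hold fewer libraries.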

Other observations

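Single RP genes can be steady where the group is not. *RpL13A* varied by 3.62% (coefficient of variation, n = 4) over the ΔN libraries and *RpL23A* by 1.52% over FLWF24, while *RpL27* varied by 1.19% over WT. The most variable well-expressed members were *RpS5b* in null (57.0%) and FL (32.5%), *RpL10* in ΔN (51.1%), *RpL41* in WT (39.1%) and *RpL29* in FLWF24 (21.8%). *RpL5*, the partner of 5S rRNA, *RpS2* and *RpL34b* shared the peak of *RpL10* in ΔN replicate 4, at 2465, 2057 and 2897 CPM, against 1098 to 1395, 1284 to 1524 and 1422 to 2070 CPM in the other ΔN libraries. These genes were chosen after their values were seen.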
